A study of Mus musculus with 49 samples.

Results

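Fraction E is the immature B cell stage of mouse bone marrow, sorted here as cells that carried B220 and surface IgM but no IgD. The comparison set 4 arrays of fraction E cells kept in culture (FxE Ctrl) against 3 arrays of fraction E cells taken straight from marrow (FxE), which are 7 of the 49 arrays of the series and 7 of the 37 in the expression table used here. The members were chosen by sample title alone, with no measured value. The FxE cells came from Balb/c mice. The FxE Ctrl cells came from mice with a bcl-2 transgene active only in B cells, and were held for 1 to 2 days in medium without the tyrosine kinase inhibitor herbimycin A that a further group of the same kind, FxE HA, received. Mice of the study were generally 4 to 8 weeks old. The labels give no strain for the bcl-2 transgenic animals. Culture, transgene and mouse strain changed together between the groups and cannot be told apart, and the study's methods describe an amplification of the RNA of the fresh samples without naming the cultured ones. They give 2 or 3 sorts for groups of this kind, so some of the 4 FxE Ctrl arrays may share a sort, and the p-values then measure only the spread between arrays. FxE Ctrl therefore served as the untreated control of herbimycin A, and its comparison with FxE asks how far that control population lay from the cells it was sorted as.

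An immature B cell has finished rearranging its immunoglobulin genes and displays IgM. In the marrow, tonic signals through that receptor keep the recombinase genes Rag1 and Rag2 low, while loss of the signal or binding of self antigen can reopen light chain rearrangement, which is called receptor editing. Cells that leave the marrow lose CD24 and CD93 and gain IgD as they become transitional and then mature B cells. Any cell taken out of its tissue also meets new supplies of amino acids, lipids, growth factors and oxygen. When amino acids run short or the endoplasmic reticulum is loaded, translation factor eIF2 is phosphorylated, and the transcription factor ATF4 then drives genes for amino acid transport, amino acid synthesis and tRNA charging. ATF4 and its partners bind composite sites of the form TGATGNAA, and interferon-activated STAT and IRF complexes bind elements with a repeated GAAA.

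Promoter stretches are shown first for the ATF4-pathway genes that rose and the interferon targets that fell in FxE Ctrl and that hold these letters, so that the matches can be read beside the values of these genes. Windows run from 250 bases before to 50 bases after each gene's start (RefSeq, build GRCm38.p6), read 5′ to 3′ on the gene's strand, and capitals mark TGATGNAA on either strand. Slc1a4, an exchanger of neutral amino acids, lies on the minus strand of chromosome 11 and Atf3, a stress-induced transcription factor, on the minus strand of chromosome 1. The plus strand carries Aars on chromosome 8, Iars on chromosome 13 and Yars on chromosome 4, which charge tRNA with alanine, isoleucine and tyrosine. Aars holds a further match at position 10 after its start, which is not printed.
Slc1a4, chr11:20332694-20332747: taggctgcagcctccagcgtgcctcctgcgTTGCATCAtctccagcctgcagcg
Atf3, chr1:191183406-191183473: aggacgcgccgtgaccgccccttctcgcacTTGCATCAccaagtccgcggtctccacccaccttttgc
Aars, chr8:111033700-111033767: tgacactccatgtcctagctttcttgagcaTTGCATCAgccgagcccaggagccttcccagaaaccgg
Iars, chr13:49682107-49682149: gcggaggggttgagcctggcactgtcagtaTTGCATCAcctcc
Yars, chr4:129189876-129189922: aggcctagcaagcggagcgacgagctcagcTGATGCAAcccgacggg

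In the amino acid response list, 3 of 9 genes that rose and had a window held TGATGNAA, and so did 3 of 13 genes that did not pass the test (Gars, Asns and Slc7a11). In the synthetase list, which shares some genes, it was 3 of 4 that rose and 2 of 11 that did not pass (Gars and Tars). The letters occur in 3.97% of the 32851 promoter windows searched, which leave out a chromosome, and in 4.51% of their genes. A match describes the letters only and is not evidence of binding. For the interferon targets the capitals mark 2 copies of GAAA set 2 bases apart, on either strand, with overlapping matches in Isg15 and Irgm1. Isg15, a ubiquitin-like protein, lies on the minus strand of chromosome 4, Irgm1, an immunity-related GTPase, on the minus strand of chromosome 11, and Gbp2, a guanylate-binding protein, on the plus strand of chromosome 3.
Isg15, chr4:156200845-156200926: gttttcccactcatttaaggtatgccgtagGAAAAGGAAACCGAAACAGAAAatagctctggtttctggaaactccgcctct
Irgm1, chr11:48871405-48871480: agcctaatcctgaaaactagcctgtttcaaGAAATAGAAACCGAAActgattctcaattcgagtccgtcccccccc
Gbp2, chr3:142620574-142620643: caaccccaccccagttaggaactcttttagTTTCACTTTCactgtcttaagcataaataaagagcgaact
These are 3 of the 5 interferon targets that fell, all 5 of which had a window. Among the interferon targets that did not pass, 8 of 18 with a window held the element, against 3.44% of the windows searched and 3.99% of their genes.

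Signals are Affymetrix intensities in scaled units, and each probe set (the probes that report one transcript) was compared on a log2 scale after values under 20 were raised to 20. Of 9977 probe sets, 169 were higher and 152 lower in FxE Ctrl at an adjusted p under 0.05, or 3.22% in all (1.69% higher and 1.52% lower). Counted once per gene, 237 of 7417 genes passed (3.2%), with 1.75% higher and 1.44% lower. The groups did not overlap, higher in FxE Ctrl for 11.5% of probe sets (12.5% of genes) and lower for 8.56% (9.02% of genes). The median difference over all probe sets was 0.13 on the log2 scale. When the arrays were scaled to a common median, 112 were higher and 152 lower, so the balance of directions depended on the scaling. The number of calls rested on single arrays, being 36 without FxE 3, 42 without FxE 1, 77 without FxE Ctrl 1 and 102 without FxE Ctrl 4. It was 167 without FxE Ctrl 2, 174 without FxE 2 and 224 without FxE Ctrl 3. Median signals were 362.7 to 414.2 on the FxE arrays and 346.3 to 490.9 on the FxE Ctrl arrays, and array-to-array correlations were 0.8934 to 0.9294 between the groups against 0.9208 to 0.9587 within them.

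**Figure D1:**
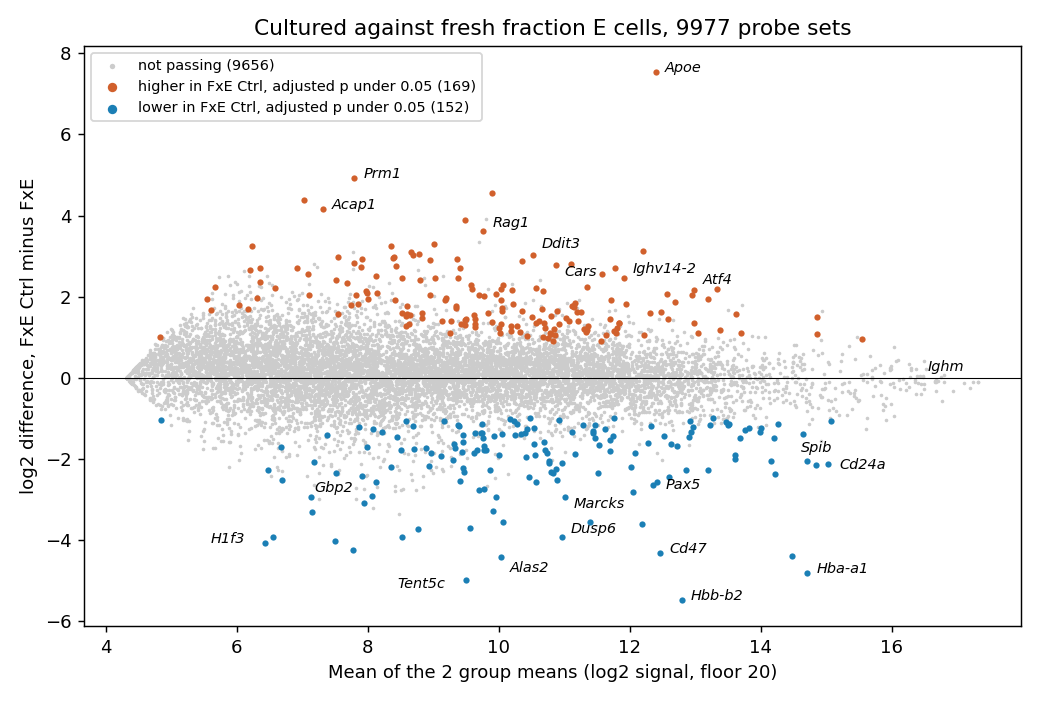
Log2 difference (FxE Ctrl minus FxE, vertical) against the mean of the group means (log2 signal, horizontal) for 9977 probe sets; coloured points passed an adjusted p of 0.05, 169 higher and 152 lower. Apoe stood alone at the top with a difference of 7.53, and the globin gene Hbb-b2 was lowest at -5.47.

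The bcl-2 transgene was checked through the 3 probe sets matched to Bcl2, the gene for the anti-apoptotic mitochondrial protein, although the sources used here do not say whether they read the transgene. The highest of them gave 918, 1826 and 935 on FxE arrays 1 to 3 and 3856, 2973, 5608 and 4731 on FxE Ctrl arrays 1 to 4. All 4 cultured arrays lay above the fresh ones, a rise of 1.85 ± 0.35 (SE, n = 3 and 4; limma adjusted p = 0.0387). That call was lost in 6 of the 7 fits that left out an array. The Bcl2 probe sets did not all move alike. Another gave a difference of 1.78 that did not pass (adjusted p = 0.0758), and the last lay lower in every FxE Ctrl array, with a difference of -2.04 (adjusted p = 0.0855). Of 12 genes of the Bcl2 family measured, Bcl2 was the only one to pass, beside 3.2% of all genes. The anti-apoptotic Mcl1 differed by -0.97 and the pro-apoptotic Bcl2l11 (Bim) by 1.15, with adjusted p of 0.0702 and 0.0733.

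Genes of the sorted phenotype gave signal in both groups. The IgM heavy chain gene Ighm gave 189349, 144570.3 and 171580.5 in FxE and 186040.3, 156749, 154307 and 134704 in FxE Ctrl on its brightest probe set, with overlapping groups. Ptprc (B220) gave 9218, 7004 and 7441 in FxE and 2682, 3465, 5172 and 5451 in FxE Ctrl on its brightest probe set. All cultured arrays lay lower, but the difference of -0.96 did not pass (limma adjusted p = 0.151). Its further probe sets overlapped between the groups, and the dimmest was at the floor of 20 in every FxE array. Ighd, of the IgD that the sort excluded, rose and is described below. Of 18 B cell markers measured, 2 fell, the transcription factors Spib and Pax5, and none rose. The shares over all genes were 1.44% lower and 1.75% higher. The summed B cell marker signal was 457608 to 559324 in FxE and 361899 to 435249.7 in FxE Ctrl, a log2 ratio of -0.36 (exact permutation p = 0.0286, two-sided, the smallest that 3 against 4 arrays allow; p = 0.0571 after quantile normalization). No B cell marker was at the floor of 20 throughout either group.

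Apoe showed the largest change in the data. The gene encodes apolipoprotein E, a secreted lipid carrier made mainly by liver and macrophages. Its signal was 337, 663 and 245 in FxE and 64500.5, 72361, 63054 and 81518 in FxE Ctrl. The cultured arrays therefore stood 169-fold above the fresh ones by group means, a difference of 7.53 ± 0.35 (SE; limma adjusted p = 5.74e-04) that passed whichever array was left out. The other cultured sorted cells, FxE HA, ran from 22646 to 71014. In the remaining groups of the table, fresh pre-B cells (FxD) and cells grown in interleukin-7 (IL-7), Apoe lay between 36.4 and 161 except for one Cre-Mhi array at 939.

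Other macrophage genes did not pass. Of 32 monocyte and macrophage markers measured, Apoe alone passed the test, near the share of all genes (3.2%). The median of the list was 0.22. Their summed signal was 19037 to 31730.0 in FxE and 82807 to 109802 in FxE Ctrl (log2 ratio 2.03; exact permutation p = 0.0286, two-sided). Without Apoe the sums were 18699 to 31067 and 19754 to 28387, which overlap (log2 ratio 0.15; exact permutation p = 0.571). No marker of that list was at the floor throughout a group.

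**Figure D2:**
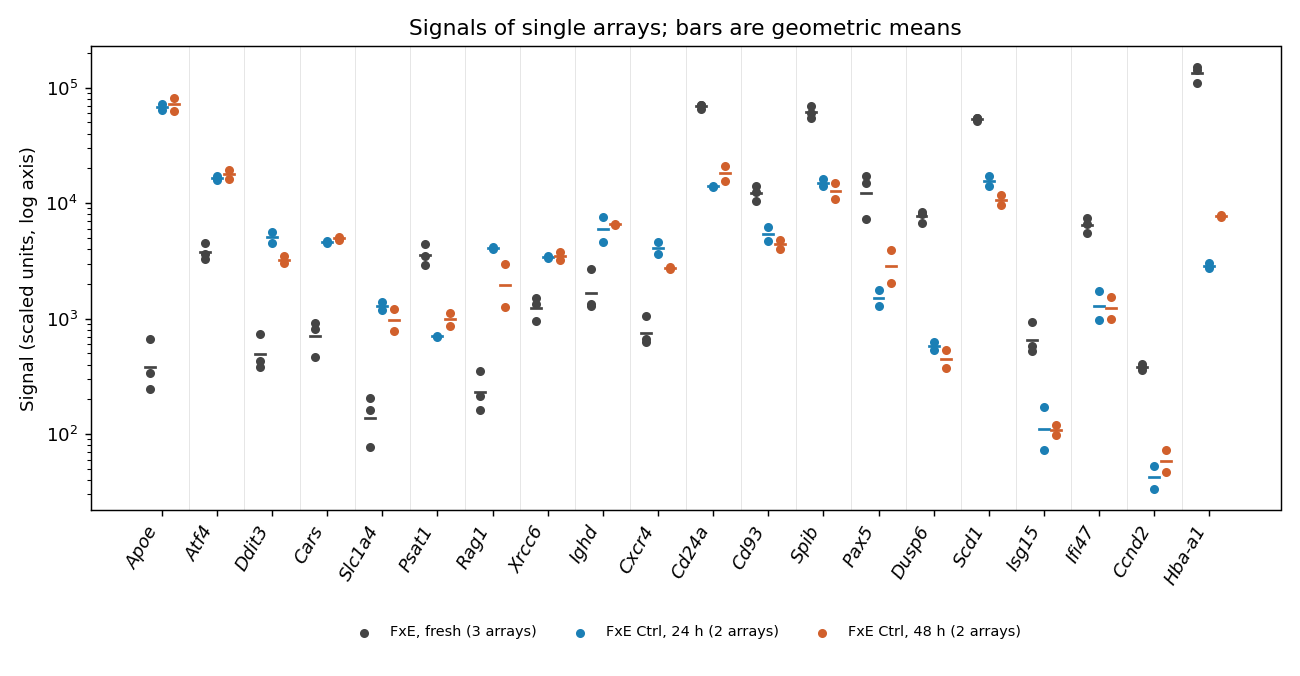
Signals of single arrays (log axis, scaled units) for 20 genes, with FxE in grey, the FxE Ctrl arrays of 24 h in blue and of 48 h in orange; bars are geometric means. Apoe, Atf4, Ddit3, Cars and Rag1 lie higher and Cd24a, Spib, Dusp6, Scd1 and Hba-a1 lower in all 4 cultured arrays than in the 3 fresh ones.

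Prm1 and Acap1 ranked next to Apoe in the strength of the test. Prm1, a sperm chromatin protamine, gave 36.6, 42.1 and 41.1 in FxE and 1646, 1188, 1168 and 925 in FxE Ctrl, a rise of 4.92 ± 0.25. Acap1, a GTPase-activating protein of endosomal recycling, gave 34.2, 39.8 and 39.4 against 830.4, 609, 584 and 681, a rise of 4.15 ± 0.21. Their fresh signals lay near the floor of 20, so the size depends on it: with a floor of 100 the rises were 3.59 and 2.74. The groups did not overlap, with an adjusted p of 5.74e-04 for each (limma), and both kept their call whichever array was left out. Signals far above FxE also occurred in other groups. Prm1 was 766 to 1087 in fresh FxD and 444 to 1288 in the IL-7 culture group Ctrl-Mhi, but 20 to 179 in GFPneg. It was 5089 to 7219 in the IgM-deleted group Cre-Mlo and 2309 to 11818 in FxE HA. Whether its probe set reads Prm1 or another transcript was not tested. Acap1 was 329.8 to 572 in Ctrl-Mhi and 536 to 769 in GFPneg, but 43.8 to 105 in FxD.

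The other large rises were of genes with varied roles. Plaur, the urokinase receptor, gave 212, 166 and 60.2 in FxE and 1015, 981, 1212 and 1249 in FxE Ctrl, a rise of 3.11 ± 0.43. Nbeal2, a granule trafficking protein, rose by 2.96, Rabggta, which attaches lipid anchors to Rab proteins, by 2.94, Ninj1, an adhesion and membrane rupture protein, by 3.05 and Tcf25 by 3.30. These genes were chosen for size and for groups that did not overlap. In Ctrl-Mhi, Tcf25 was 1595 to 1849 and Rabggta 562 to 915, while in fresh FxD they were 66.4 to 664 and 86.2 to 132. Among the falls outside the groups described later, Tent5c, a poly(A) polymerase, gave 3551, 4095 and 3161 in FxE but 25.5 on FxE Ctrl 1 and 167 or more on the other cultured arrays, whose group mean was 146, a difference of -4.99 ± 0.73 (adjusted p = 0.019). Aldh1a1, a retinaldehyde dehydrogenase, differed by -4.25 and Nedd4, a ubiquitin ligase, by -3.71, and each of these calls was lost in 6 of the 7 fits that left out an array. Slco5a1, an organic anion transporter family member, gave 3829, 3270.3 and 3741 in FxE and 215, 369, 419 and 281 in FxE Ctrl, a difference of -3.54 ± 0.28 (adjusted p = 0.00495). High Slco5a1 signal was seen only in FxE, since the highest array outside FxE and FxE Ctrl was 404, in GFPneg.

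Genes of the amino acid response formed the group with the highest median of those examined. Of 30 measured members, 10 rose, 1 fell and 19 did not pass, beside 1.75% of all genes higher and 1.44% lower. The list had 27 differences above 0 and a median of 0.89, against 0.13 over all probe sets. In 16 of the 30 all cultured arrays lay above all fresh ones, beside 12.5% of all genes. Leaving out single arrays left between 3 and 9 members higher and a median of 0.92 to 1.02.

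Its transcription factors Atf4, Ddit3 and Atf3 rose. Atf4, the regulator of the response, gave 4539, 3287 and 3632 in FxE and 15779, 17044, 16216 and 19505 in FxE Ctrl, a rise of 2.17 ± 0.21 (limma adjusted p = 0.00767). Ddit3 (CHOP), which ATF4 induces under prolonged stress, gave 742, 428 and 380.1 against 4528, 5628, 3005 and 3464, a rise of 3.03 ± 0.34 (adjusted p = 0.0105). In Atf4 and Ddit3 the lowest cultured array was above 3 times the highest fresh one. Atf3, whose promoter stretch is given above, rose by 1.58 ± 0.28 (adjusted p = 0.0325), from 167 to 265 in FxE to 484 to 818 in FxE Ctrl. Atf5 and Cebpb, further factors of the pathway, differed by 1.41 and 1.67 and did not pass.

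Transport and synthesis genes were split. Slc1a4 gave 206, 161 and 77.6 in FxE and 1197, 1399, 1216 and 785 in FxE Ctrl, a rise of 3.04 ± 0.39 (adjusted p = 0.0137). Slc38a2, the starvation-induced SNAT2 transporter, rose by 1.77 ± 0.27 (adjusted p = 0.0218). Mthfd2, of mitochondrial one-carbon metabolism, rose by 1.95 ± 0.32 and Bcat1, the cytosolic branched-chain aminotransferase, by 1.91 ± 0.33. Psat1, an enzyme of serine synthesis, moved the other way. It gave 3490.3, 2889 and 4396 in FxE and 712, 693, 859 and 1129 in FxE Ctrl, a fall with a difference of -2.09 ± 0.27 (adjusted p = 0.0137). Asns, asparagine synthetase and a widely used readout of the pathway, differed by 0.57 with overlapping groups (adjusted p = 0.32), and the cystine transporter gene Slc7a11 by -0.21.

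Aminoacyl-tRNA synthetases, which join each amino acid to its tRNA, moved up in part. Of 22 measured, 5 rose and none fell, beside 1.75% of all genes higher and 1.44% lower. The median was 0.32 and 18 differences lay above 0. Cars, for cysteine, gave 914, 811 and 466 in FxE and 4678, 4518, 5118 and 4799.7 in FxE Ctrl, a rise of 2.77 ± 0.27 (adjusted p = 0.00767). The cultured Cars values lay close together, all above 4 times the highest fresh value. The others were Aars with 1.64, Yars with 1.28, Sars (serine) with 1.23 and Iars with 1.21. Only 1 synthetase passed in the fits that left out an array, other than the one without FxE Ctrl 3, where 4 did.

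Beyond Slc1a4 and Slc38a2, 4 more of the 126 genes with an Slc symbol rose and none of those fell. Over all genes 1.75% were higher and 1.44% lower, and the Slc median of 0.12 equalled the median of all genes. Slc7a7, which exchanges cationic amino acids, rose by 2.99, the phosphate importer Slc20a1 by 2.19, the vitamin transporter Slc5a6 by 2.10 and the sugar transporter Slc50a1 by 1.35. The unfolded protein response list held 24 measured genes, of which Atf4 and Ddit3 alone passed, and its median was -0.09. None of 24 heat shock genes passed, with a median of -0.05.

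**Figure D3:**
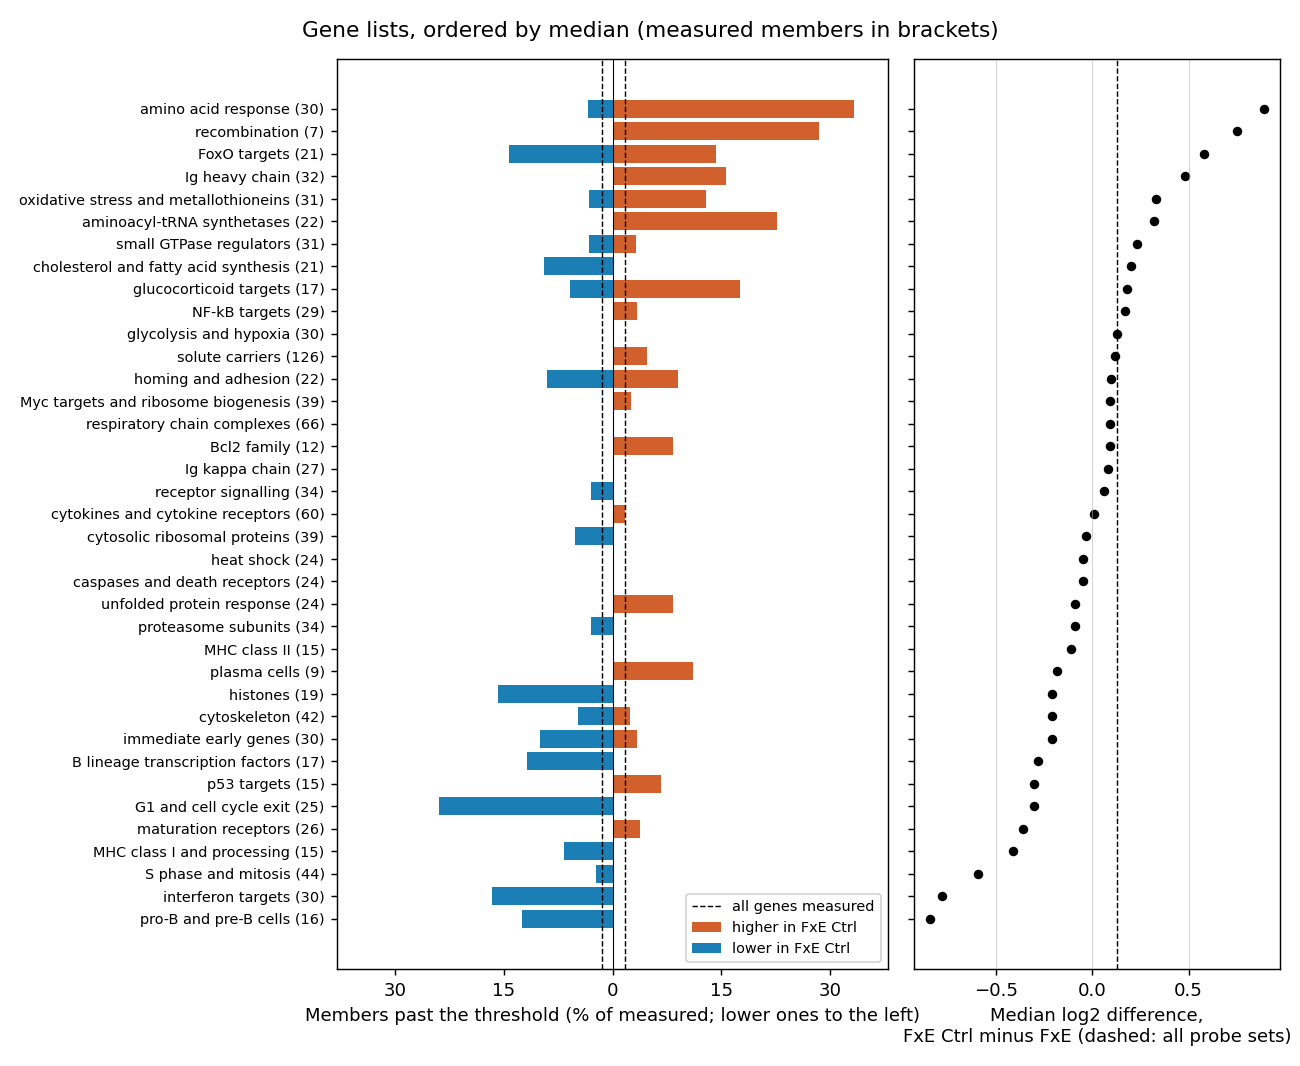
Share of the measured members of each list past the threshold (left, percent, lower ones drawn to the left of 0) and the median log2 difference of the list (right), with dashed lines for all genes or probe sets measured. The amino acid response, with 10 of 30 members higher, tops the order, and the genes of pro-B or pre-B cells, at a median of -0.84, close it.

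Rag1, the catalytic subunit of the V(D)J recombinase, was higher in the cultured cells. It gave 355, 212 and 161 in FxE and 4034, 4193, 1271 and 2959 in FxE Ctrl, a rise of 3.62 ± 0.49 (limma adjusted p = 0.0163). The groups did not overlap, but the call was lost in 5 of the 7 fits that left out an array, with adjusted p up to 0.0766. Rag2, its partner, gave 21.1, 118 and 37 against 325, 285, 57.2 and 177, so its groups overlapped (difference 1.95, adjusted p = 0.235). Among 7 recombination genes measured, Xrcc6 (Ku70), a DNA end-binding protein of the joining step, was the other one that rose, by 1.48 ± 0.23 (adjusted p = 0.0218), a call also lost in 5 of the 7 fits. Of all genes, 1.75% were higher. Dntt, which adds nucleotides at heavy chain joints, differed by 0.41 on its brighter probe set and by -0.32 on another, and neither passed.

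The Rag1 level of FxE Ctrl lay between those of other groups, which are given as levels only. FxE Ctrl ran from 1271 to 4193, near the 1648 to 3174 of the IL-7 culture group Ctrl-Mhi. It was below FxD at 11302 to 21243 and FxE HA at 14799 to 18540.4. GFPneg cells, sorted for a silent Rag2 reporter, had 212 to 253, within the range of FxE.

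No gene of the earlier B cell stages passed as higher next to Rag1. Among 16 measured genes that mark pro-B or pre-B cells, none rose and 2 fell, beside 1.75% of all genes higher and 1.44% lower. The list's median was -0.84, with 11 differences below 0. The median was -1.07 with the 24 h arrays alone and -0.2 with the 48 h arrays alone. Cd24a, the gene of the heat stable antigen that marks immature cells, gave 71434, 65740.4 and 71216 in FxE and 13916, 14171, 20876 and 15659 in FxE Ctrl, a difference of -2.12 ± 0.22 (adjusted p = 0.00867). Cd93, the AA4 antigen of immature and transitional cells, gave 12470.4, 10483 and 14015 against 4702, 6193, 4031 and 4815, a difference of -1.33 ± 0.23 (adjusted p = 0.0314). No cultured array reached a fresh one for either gene. Il7r, the IL-7 receptor chain of progenitors, was lower in all cultured arrays with a difference of -1.19 that did not pass (adjusted p = 0.113). The surrogate light chain genes Vpreb1 and Igll1 differed by 0.88 and 0.33 with overlapping groups. A dimmer Igll1 probe set differed by -0.41, also with overlap. The Cd93 call was lost in 6 of the 7 fits that left out an array and the Cd24a call in 2.

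Transcripts of IgD and a few surface receptors went up. Ighd, the IgD heavy chain, gave 1332, 2693 and 1287 in FxE and 4617, 7582, 6654 and 6529.6 in FxE Ctrl, a rise of 1.91 ± 0.33 (adjusted p = 0.0316). Cxcr4, the chemokine receptor that retains cells in marrow, gave 666, 1052 and 622 against 4603, 3663, 2816 and 2672, a rise of 2.15 ± 0.30 (adjusted p = 0.0169). Itgb7, an integrin chain of gut homing, rose by 1.62 ± 0.21, and Cd55, which shields cells from complement, by 1.5 ± 0.26. Cd55 was the only one of 26 maturation receptors to pass, near the share of all genes (3.2%). Leaving out single arrays lost the call of Cd55 in all 7 fits, of Ighd in 6 and of Cxcr4 and Itgb7 in 3. Cr2 (CD21) and Fcer2a (CD23), which mark mature B cell subsets, differed by -0.59 and 0.42 and did not pass. Cd47, the signal against phagocytosis, fell on both of its probe sets, by 4.31 and 1.66 on the log2 scale, the brighter going from 20793 to 26177 in FxE to 402 to 2248 in FxE Ctrl.

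Other immunoglobulin heavy chain probe sets rose as well, and light chain ones did not pass. Of 32 heavy chain probe sets, 5 rose and none fell, with a median of 0.48, beside 1.69% of all probe sets higher and 1.52% lower. Besides Ighd they were a pair for the variable gene Ighv14-2, with rises of 2.71 and 2.45, and a pair for Ighg3, the IgG3 constant region, with rises of 2.47 and 2.83. The brighter Ighg3 probe set gave 348, 294 and 208 in FxE and 1312, 1784, 1478 and 1627 in FxE Ctrl. Other probe sets matched to Ighg3 did not pass, and probe sets of this family share sequence, so which transcript they read is uncertain. None of 27 kappa probe sets passed, with a median of 0.08.

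Spib and Pax5 stood out among the transcription factors of the lineage. Spib, an Ets factor downstream of the B cell receptor, gave 59875, 54670.1 and 69466 in FxE and 16152, 13996, 14882 and 10918 in FxE Ctrl, a difference of -2.14 ± 0.22 (adjusted p = 0.00867). Pax5, which maintains B cell identity, gave 15028, 7290.4 and 17114 against 1286, 1785, 3956 and 2044, a difference of -2.57 ± 0.46 (adjusted p = 0.0336). The lowest fresh array stood above the highest cultured one in Spib and Pax5 alike, while the Pax5 call was lost in 5 of the 7 fits that left out an array and its second, dim probe set did not pass (0.61). The remaining 15 of 17 factors did not pass, among them Ebf1 at -0.28, Pou2af1 at -0.92 and Ikzf1 at -0.15. Over all genes 1.44% were lower. Prdm1, the plasma cell regulator Blimp-1, rose by 2.98 ± 0.60 with a limma adjusted p of 0.0495. It was the only one of 9 plasma cell genes to pass, beside 3.2% of all genes. That call was lost in 6 of the 7 fits that left out an array, with adjusted p up to 0.124.

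A few interferon targets fell in the cultured cells. Of 30 measured, 5 fell, 25 did not pass and none rose, beside 1.44% of all genes lower and 1.75% higher. The median was -0.78 and 24 differences lay below 0. In 15 of the 30 all cultured arrays lay below all fresh ones, beside 9.02% of all genes. Isg15 gave 523, 930.3 and 581 in FxE and 170.2, 72.9, 121 and 97.9 in FxE Ctrl, a difference of -2.57 ± 0.36 (adjusted p = 0.0167). Gbp2 gave 753, 617 and 736 against 53.3, 137, 71.5 and 146, a difference of -2.90 ± 0.40 (adjusted p = 0.0166). Fresh arrays exceeded cultured ones by more than 3 times at the closest pair in Isg15 and 4 times in Gbp2. The GTPase Ifi47 fell by 2.35, the exonuclease Isg20 by 1.78 and Irgm1 by 1.35 on the log2 scale. The number that fell ranged from 0 (without FxE 1 or without FxE 3) to 5 when single arrays were left out, and the median from -0.89 to -0.64. Factors of the pathway did not pass, with Irf7 at 0.11, Irf1 at -0.18 and Irf9 at -1.02.

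Antigen presentation genes passed at about the share of all genes (3.2%). None of 15 MHC class II genes passed, with a median of -0.11, and of 15 genes of class I and its antigen processing only the immunoproteasome subunit Psmb10 fell, by 1.14 on the log2 scale, a call lost in all 7 fits that left out an array. H2-Ea, the class II E alpha chain that is silent in mice of the b haplotype such as C57BL/6, gave 42554, 48842 and 38386 in FxE and 64523, 58494, 76353 and 53559 in FxE Ctrl. All 4 cultured arrays were higher, but the difference of 0.54 did not pass (adjusted p = 0.235). The B6-M- arrays, IgM-negative pro-B cells of C57BL/6 mice from IL-7 culture, had 28.6 to 86.7, where stage and haplotype cannot be told apart. FxE HA had 615 to 1138 and GFPneg 20 to 718. The labels give no strain for the mice of FxE HA or FxE Ctrl, and whether their haplotypes differ was not tested.

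Signalling genes moved in both directions. Dusp6, a phosphatase induced by ERK that in turn inactivates ERK, gave 6749, 8104 and 8325 in FxE and 532, 633, 538 and 371 in FxE Ctrl, a difference of -3.92 ± 0.25 (adjusted p = 0.00143). The fresh arrays were over 10 times the cultured ones, and the call held whichever array was left out. Of 30 immediate early genes, 3 fell (Dusp6, the antiproliferative Btg1 and the G protein regulator Rgs2) and Atf3 rose. The shares over all genes were 1.44% lower and 1.75% higher. The classical members Egr1 (-0.45), Junb (-0.17) and Dusp1 (-0.45) did not pass. Marcks, a substrate of protein kinase C at the membrane, gave 5898, 4417 and 6774 against 557, 914, 840.1 and 661, a difference of -2.94 ± 0.27 (adjusted p = 0.00752). Of 34 genes of antigen receptor signalling only Itpr2, an IP3 receptor, passed, near the share of all genes (3.2%). Its brightest probe set fell by 2.04 and a dim one rose by 1.96, so the gene has no single direction.

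Targets of FoxO, glucocorticoid and NF-kB signalling gave mixed counts, to be read beside 1.75% of all genes higher and 1.44% lower. Of 21 FoxO targets, 3 rose (Rag1, Ypel3 and the stress gene Gadd45a) and 3 fell (Btg1, Ccng2 and Cited2), with a median of 0.58. Of 17 glucocorticoid targets, Cxcr4, the clock gene Per1 and the chromatin remodeller Smarca2 rose and Tsc22d1 fell, with a median of 0.18. The chemokine Ccl3 was the only one of 29 NF-kB targets to pass, near the share of all genes (3.2%). It rose by 2.52 and lost the call in 6 of the 7 fits that left out an array. Nfkbia, the inhibitor IkB alpha, had one probe set that fell by 2.19 on the log2 scale (adjusted p = 0.00767) and another at -0.76 that did not pass (adjusted p = 0.213).

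Cell cycle genes leaned lower, though few passed the test. Of 44 genes of S phase and mitosis, 37 had differences below 0 and the median was -0.59, but only the mitotic cyclin Ccnb2 fell past the threshold, by 1.26 on the log2 scale, and it lost the call in all 7 fits that left out an array. Mki67, the proliferation antigen Ki-67, gave 1008, 758 and 838 in FxE and 36.4, 20, 254 and 267 in FxE Ctrl, with no overlap (difference -3.36, adjusted p = 0.118). Of 25 genes of G1 control and cell cycle exit, 6 fell and none rose, beside 1.44% of all genes lower and 1.75% higher. Only 1 fell without FxE 1, FxE 3, FxE Ctrl 1 or FxE Ctrl 4 and 2 without FxE 2 or FxE Ctrl 2. Ccnd2, a D cyclin of early B cells, gave 379, 401 and 359.7 against 53.3, 33.4, 47.4 and 72.5, a difference of -2.93 ± 0.29 (adjusted p = 0.00767). The other 5 include brakes on division: Rb1, Btg1, Ccng2 and the Max partner Mxd4, next to Ccni. Among 19 histone probe sets 3 fell, beside 1.44% of all genes. They were led by the linker histone H1f3, which lay at 262 to 420.4 in FxE and near or at the floor of 20 in FxE Ctrl.

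Some lipid and redox genes also differed, while 1.75% of all genes were higher and 1.44% lower. Scd1 and Scd2, the desaturases that make monounsaturated fatty acids, fell by 2.05 and 3.27 on the log2 scale. Scd1 gave 51837, 54529 and 54639 in FxE and 14176, 17316, 11881 and 9598 in FxE Ctrl (adjusted p = 0.013). No cultured Scd1 array came near a fresh one, yet the other 19 of 21 genes of cholesterol and fatty acid synthesis did not pass and the list had a median of 0.20. Of 31 genes of oxidative stress, the glutathione transferases Gsto1 and Gstm1, ferritin Fth1 and the peroxidase Gpx4 rose by 2.41, 1.10, 0.96 and 0.92, and the peroxiredoxin Prdx2 fell by 1.21. Of these, Fth1, Gpx4 and Prdx2 lost the call in all 7 fits that left out an array, and Gsto1 and Gstm1 in 6. None of 30 glycolysis and hypoxia genes or of 66 respiratory chain probe sets passed.

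Red cell transcripts were the chief marker difference from another cell type. Hba-a1, alpha globin, gave 142788, 150989 and 110423 in FxE and 2743, 3005, 7976 and 7602 in FxE Ctrl, a difference of -4.82 ± 0.46 (adjusted p = 0.00767). Hbb-b2, beta globin, differed by -5.47, the haem synthesis enzyme Alas2 by -4.42, the Rhesus antigen Rhd by -3.72 and Bpgm, which makes the red cell metabolite 2,3-bisphosphoglycerate, by -2.34. These 5 were the only ones of 22 erythroid markers to pass, beside 1.44% of all genes lower. The list's median was -0.13, ranging from -0.78 to 0.30 when single arrays were left out. The summed signal was 165559 to 228778 in FxE and 16791 to 27738 in FxE Ctrl (log2 ratio -3.23; exact permutation p = 0.0286, two-sided). Without the globins it was 19021 to 30344 and 12455 to 17218 (log2 ratio -0.78; exact permutation p = 0.0286). In sorted bulk samples, fewer cells of a type and less RNA per cell cannot be told apart, and the part of erythroid RNA in other genes that fell was not tested. FxD arrays, also fresh, had Hba-a1 at 54152 to 116359, and FxE HA arrays at 1097 to 8863. In the groups grown in IL-7 it was 129 to 708, below every FxE Ctrl array.

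Neutrophil marker signal was set by 1 array. Their summed signal was 100444, 329816 and 93240.2 in FxE and 151572, 143016, 52575 and 101887 in FxE Ctrl, with FxE 2 alone far above the rest (log2 ratio -0.64; exact permutation p = 0.629, two-sided). Without FxE 2 the log2 ratio was 0.21. None of the 25 neutrophil markers, 20 T cell, 14 NK cell, 18 mast cell and granulocyte, 9 megakaryocyte or 30 stromal markers passed. Over all genes 3.2% did.

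**Figure D4:**
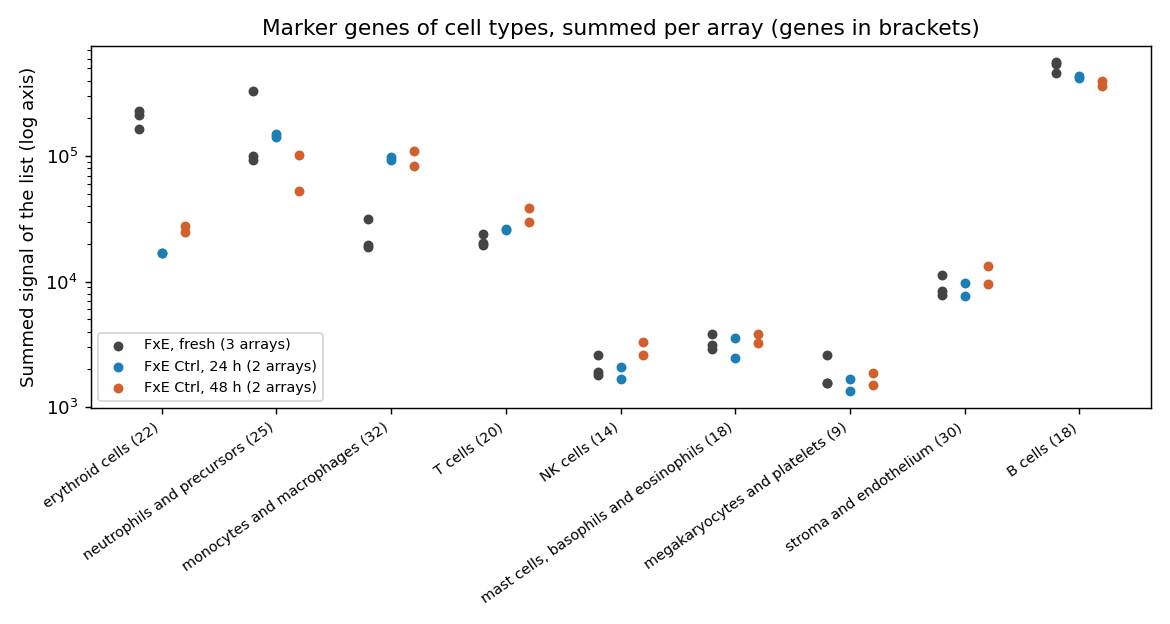
Summed signal of the marker genes of 9 cell types on each array (log axis, scaled units), with FxE in grey, the FxE Ctrl arrays of 24 h in blue and of 48 h in orange. Erythroid sums fell from 165559 or more to 27738 or less, and the rise of the monocyte and macrophage sum to 82807 or more is carried by Apoe.

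Time in culture was examined within FxE Ctrl, where a figure legend of the study, not the labels, assigns arrays 1 and 2 to 24 h and arrays 3 and 4 to 48 h. No probe set passed for 48 h against 24 h with 2 arrays each (limma; 1336 at an unadjusted p under 0.05, smallest adjusted p 0.12). Against the fresh cells, Apoe was 7.49 higher at 24 h and 7.56 at 48 h on the log2 scale. The Cd79a transcript, for a signalling chain of the B cell receptor, was 29568 and 27941 at 24 h and 8809 and 6489 at 48 h, beside 14132 to 19627 in FxE. Its 24 h and 48 h arrays lay on opposite sides of the fresh ones (difference of 48 h from 24 h -1.93, adjusted p = 0.14 within FxE Ctrl, and -1.77, adjusted p = 0.00176 with the FxE HA arrays added).

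With the 6 FxE HA arrays added as a second treatment of the same hours, 293 probe sets were higher and 227 lower at 48 h (5.21% of 9977). The hours may coincide with separate sorts, which cannot be told apart. Lef1, a transcription factor of early B cells, gave 60.1, 156 and 146 in FxE, 87.6 and 127 in FxE Ctrl at 24 h and 850.4 and 1079 at 48 h. FxE HA arrays had 533 to 717 at 24 h and 3164 and 3549.9 at 48 h, so both treatments were higher at 48 h (difference 2.75 ± 0.29, adjusted p = 0.00176). The lysosomal lipase Lipa was 2.84 higher at 48 h, Actb, beta actin, 2.32 and the zinc finger gene Zfp62 2.08. The progenitor genes Myb, Il7r and Sox4 were 1.78, 1.76 and 0.81 higher at 48 h in this joint fit (adjusted p = 0.00406, 0.00577 and 0.0484). Within FxE Ctrl alone the differences were 1.36, 0.97 and 0.67 and did not pass (limma adjusted p = 0.233, 0.241 and 0.396). At 48 h Il7r was 384 and 420.3 in FxE Ctrl, below every FxE array, and 1540.3 and 2350.0 in FxE HA. Hbb-b2 was 2.24 higher at 48 h, which left it far below its level in FxE. Sdc4, a heparan sulphate proteoglycan, gave 5641 and 5154 in FxE Ctrl at 24 h and 919 and 1016 at 48 h, and was 2.23 lower (adjusted p = 0.0029). The other large decreases were Plekho1 (-3.0), Snd1 (-2.50), Hdc (-2.49), Mapk7 (-2.48) and Capn1 (-2.28).

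Levels in the other groups of the table place these differences, and they are descriptions without a test since most groups differ in mice and culture. Atf4, Ddit3 and Cars were high in both cultured sorted groups: FxE HA had 14398 to 25868, 5079 to 6776 and 6809.9 to 10177. Cells grown in IL-7 had Ddit3 at 112 to 939 and Cars at 116 to 1184, which overlap FxE. Their Atf4, at 5754 to 11181, lay above every FxE array and below every FxE Ctrl array. Cd24a ran from 9923 to 23502 in FxE HA and from 53067 to 105326 in the groups other than FxE Ctrl and FxE HA. Spib was 1085 to 5529 in FxE HA and 17582 to 76783 in those other groups. Dusp6 was 20 to 214 in FxE HA and 1172 or more elsewhere outside FxE Ctrl. Some genes that rose in FxE Ctrl were not high in FxE HA. Ighd in FxE HA (1355 to 2859), Itgb7 (774 to 1770.5) and Cd55 (618 to 1345) overlapped FxE and lay below every FxE Ctrl array, as did Plaur (88.3 to 463).

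**Figure D5:**
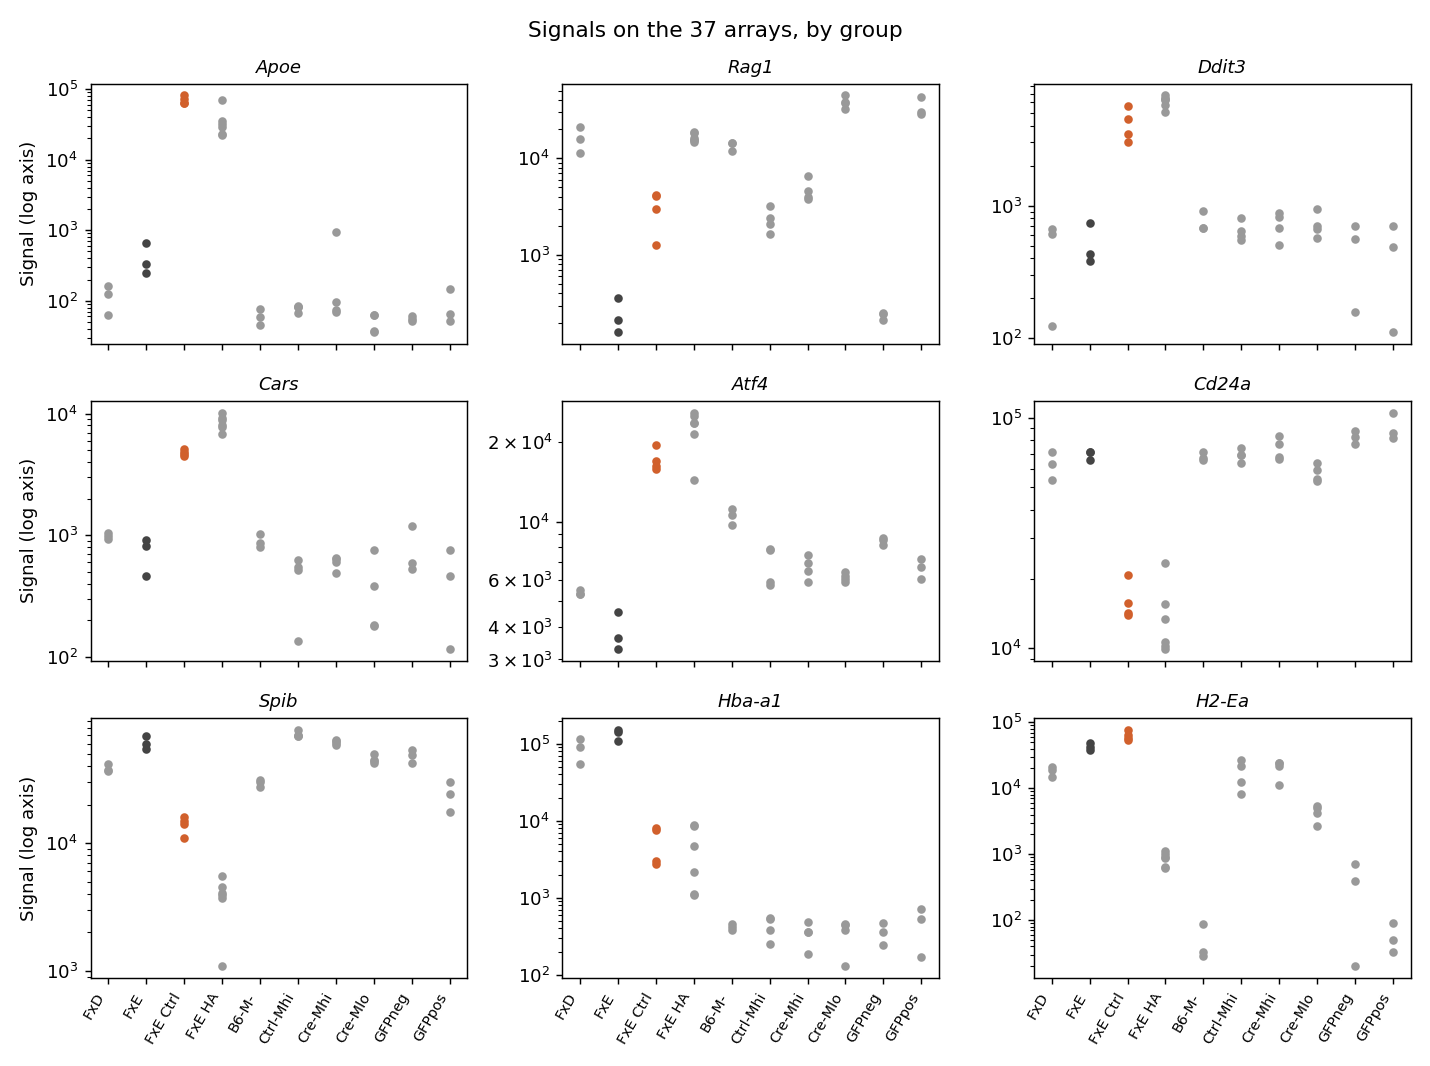
Signals of 9 genes on all 37 arrays (log axis, scaled units), by group, with FxE in black, FxE Ctrl in orange and the other groups in grey. FxE Ctrl and FxE HA share high Apoe, Ddit3, Cars and Atf4 and low Cd24a and Spib, while they part in Rag1 and H2-Ea. Their Hba-a1 lies below the fresh FxD and FxE arrays and above the groups grown in IL-7.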

How the data were processed

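Per the labels, RNA of sorted cells was hybridised to Affymetrix U74Av2 arrays, and the authors deposited 1 table of signal intensities for 37 arrays, freed of masked probe sets and scaled to 1500 units in Microarray Suite 5.0. Intensities of the 7 FxE and FxE Ctrl arrays were raised to a floor of 20, taken to log2 and compared with limma 3.58.1 in R 4.3.3 (Benjamini-Hochberg over 9977 probe sets, adjusted p under 0.05). Depth has no meaning for arrays; their number limits the precision. On simulated arrays with spreads drawn from the real ones, the test recovered 14% of changes of 1 on the log2 scale. It recovered 52% of changes of 2, 70% of 3 and 84% of 4, with 6 false calls. A gene that did not pass can therefore still differ.

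Gene names came from the platform annotation: 8724 probe sets match 1 gene, 346 several and 907 none. Lists were read from the brightest probe set of each gene, and the immunoglobulin, ribosomal, proteasome, respiratory chain, synthetase, histone, GTPase and solute carrier families by symbol pattern. Members and lists were chosen with earlier results of these data known. Named genes were the 12 largest rises and falls with groups that did not overlap and a mean of at least 500 in the higher group, up to 6 members of each list with the smallest adjusted p, the genes defining the stage, and for the time comparison the 5 largest calls each way. Other list members and Sdc4 were named after their values were seen. Marker sums were compared by an exact permutation test. A fit with 24 h and 48 h apart gave the time comparison, with hours from a figure legend.

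Alternatives were the floor, quantile or median scaling, a minimum mean, array weights, trend and robust fits, all 37 arrays, the replicate number as a block, each array left out, and the methods' t-test. The study's filter on detection p could not be repeated with these intensities. A second table from another array type and the scan description files were not used. Promoter windows came from RefSeq tables. Those of a chromosome were left out, so its genes counted as having no window.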

Additional observations from a re-analysis of the deposited data

Results flagged for a closer look

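In 4 of 98 groups of 4 FxE Ctrl arrays tested, 1 array stood far from the other 3 by Dixon's ratio, where chance gives about 1 in 20. Ninj1, an adhesion protein, was 744 on FxE Ctrl 3 and 1374 to 1429 on the others. Tent5c, a poly(A) polymerase that fell by 4.99 on the log2 scale, was 25.5 on FxE Ctrl 1 and at least 167 on the others. Nedd4, a ubiquitin ligase, was 42 on FxE Ctrl 4 and 262 to 335 on the others. H1f3 was 23.7 on FxE Ctrl 4 with the others at the floor of 20, so its distance has no weight.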

How the results depend on the processing

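Against 321 calls, 1172 were made with all 37 arrays in one fit, 902 with a mean of at least 500 in a group (of 4938 probe sets), 750 with trend and robust fits, 650 with array weights and 580 with a floor of 100. The methods' t-test gave 277, or 43 after adjustment. Quantile normalization gave 371 (175 higher, 196 lower) and median scaling 264 (112 higher, 152 lower, so 42.4% higher beside 52.6%). Leaving out single arrays gave 36 to 224. With the replicate number as a block there were 0 calls in limma (1361 at an unadjusted p under 0.05). The replicate numbers do not pair the arrays, as same-numbered arrays did not deviate together (correlations -0.0434, -0.0238 and -0.0105). Of 89 called probe sets of named genes, 16 kept the call whichever array was left out, among them Apoe, Prm1, Acap1, Atf4, Cars, Dusp6, Ccnd2, Marcks, Hba-a1 and H1f3, and 73 lost it at least once; none changed sign in any setting. For 48 h against 24 h, counts were 81 with a floor of 100, 520 with the FxE HA arrays, and 0 to 1 without single arrays.

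Log2 ratios of marker sums without single arrays were -3.38 to -3.13 (erythroid), 1.9 to 2.31 (monocytes and macrophages), -0.45 to -0.31 (B cells) and -0.94 to 0.21 (neutrophils, 0.21 without FxE replicate 2). With 6 arrays these tests cannot go below 0.0667 or 0.1. The B cell sum gave -0.21 after quantile normalization (exact permutation p = 0.0571) and -0.45 after median scaling (exact permutation p = 0.114). Among genes that did not pass, Ighm was 0.03 with the 24 h arrays alone and 0.09 after quantile normalization. Cd79a was 0.82 with the 24 h arrays, 0.01 with array weights, 0.25 with the replicate block and -0.48 to 0.25 without single arrays. Dntt was -0.32 with the 24 h arrays, -0.03 with array weights and -0.21 to 0.82 without single arrays. The cause of these shifts was not tested. The alternatives for marker sums, for lists without single arrays and for 48 h against 24 h without single arrays were chosen after seeing the data.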
